A study of Mus musculus with 18 samples.

Results

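The genes described here encode 10 secreted or membrane-anchored proteins of tendon, cartilage and the connective tissue around muscle fibres: chondroadherin (Chad), cartilage oligomeric matrix protein (Comp), fibromodulin (Fmod), thrombospondin 4 (Thbs4), tenomodulin (Tnmd), asporin (Aspn), periostin (Postn), lumican (Lum), osteoglycin (Ogn) and decorin (Dcn). They were chosen by name, with earlier results of these data known, out of 12393 genes that the array measured, and other genes of the same families are given at the end. All 10 were measured, by 17 probe sets in all, and none was lost to a filter. RNA came from soleus, a slow postural calf muscle, and from extensor digitorum longus (EDL), a fast muscle of the shin, of adult male C57BL/N6 mice (C57/BL6 in the sample labels) aged 19 to 20 weeks. BF mice had flown for 30 days aboard the Bion M1 biosatellite, BG mice had spent the same time on the ground in a replicate of its habitat, and FC mice had been kept in standard cages of the animal facility. BF and BG mice ate paste food and FC mice ate standard chow, and BF mice were moved from the landing site over 12 to 14 hours before dissection, so that food and transport cannot be told apart from the groups they go with. Each of the 6 groups of muscle and condition has 3 arrays, numbered 1 to 3 in the labels, which do not say that equal numbers are the same mouse.

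Fmod, Lum, Dcn, Aspn and Ogn belong to the small leucine-rich proteoglycans and their relatives, which bind collagen fibrils and set their spacing and width. Chad has the same kind of leucine-rich repeats and links collagen to integrins on cells, while Comp and Thbs4 are pentameric thrombospondins that bind several matrix proteins at once. Postn is a matricellular protein of load-bearing and healing tissue, and Tnmd is a membrane protein that serves as a marker of mature tendon cells. In muscle these transcripts come mainly from fibroblasts and from tendon or aponeurosis that is dissected along with the fibres.

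Values are log2 signals, so a difference of 1 is a doubling, and levels of different genes are not compared because each has its own probes. A gene with several probe sets is given by the one with the highest mean signal. Differences were tested in a single limma model over the 18 arrays, with standard errors (SE) from that model and Benjamini-Hochberg adjusted p values over the 22626 probe sets tested. A gene is said to have risen or fallen when its adjusted p was under 0.05. The muscle labels held in the data. The slow myosin Myh7 averaged 13.03 to 13.91 in the soleus groups and 7.99 to 9.37 in the EDL groups. Arrays of the same group correlated at 0.978 to 0.995, and array medians lay between 6.17 and 6.26. Epidermal markers stood apart on a few arrays. Their summed signal over 8 genes, in log2 units, was 8.09 to 8.62 on 14 of the 18 arrays, but 12.65 on BG EDL 2, where the keratin Krt13 alone reached 11.05, then 9.84 on BF soleus 2, 9.65 on FC EDL 2 and 9.21 on BF soleus 1. For the genes of interest, BF soleus 1 was the lowest of the 9 soleus arrays for 8 of the 10. Where no BF array reached a control array, the lowest of the 9 had to be a BF array. The median deviation of the 10 genes from their group means was -0.56 on BF soleus 1. BF soleus 3, the highest of its group for 8 genes, deviated as far the other way, at 0.54. BF EDL 1 and 3 did so too, at 0.53 and -0.58.

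The promoters of 4 of these genes are shown because the genes fall into the pair of patterns described below, Chad and Fmod in one and Aspn and Postn in the other. Each is the 250 bases before an annotated start in RefSeq for GRCm38.p6, on the plus strand, written 5′ to 3′. Capitals mark matches, on either strand, to the motifs searched. These were the core promoter element TATAAA, the E-box that the tendon factor scleraxis binds, written CAGATG, the AP-1 site with the letters TGANTCA, the shortest Smad box, which reads CAGAC, and the core that Sox factors recognise, which reads AACAAT. The windows are chr11:94564797-94565046 for Chad, chr1:134037004-134037253 for Fmod, chr13:49544193-49544442 for Aspn and chr3:54360857-54361106 for the second of the annotated starts of Postn.
Chad: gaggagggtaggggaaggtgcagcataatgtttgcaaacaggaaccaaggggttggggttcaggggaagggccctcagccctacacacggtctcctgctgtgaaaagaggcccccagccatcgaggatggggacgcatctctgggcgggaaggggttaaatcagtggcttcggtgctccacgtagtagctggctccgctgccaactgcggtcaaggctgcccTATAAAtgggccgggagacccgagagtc
Fmod: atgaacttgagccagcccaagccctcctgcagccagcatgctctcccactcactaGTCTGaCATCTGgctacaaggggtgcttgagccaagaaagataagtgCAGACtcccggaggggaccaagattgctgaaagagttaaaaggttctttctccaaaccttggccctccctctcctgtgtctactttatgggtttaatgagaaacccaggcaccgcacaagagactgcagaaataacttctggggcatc
Aspn: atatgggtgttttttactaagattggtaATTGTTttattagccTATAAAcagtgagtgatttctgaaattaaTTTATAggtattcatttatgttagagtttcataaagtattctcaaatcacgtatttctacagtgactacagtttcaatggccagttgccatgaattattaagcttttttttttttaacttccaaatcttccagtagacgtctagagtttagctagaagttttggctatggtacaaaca
Postn: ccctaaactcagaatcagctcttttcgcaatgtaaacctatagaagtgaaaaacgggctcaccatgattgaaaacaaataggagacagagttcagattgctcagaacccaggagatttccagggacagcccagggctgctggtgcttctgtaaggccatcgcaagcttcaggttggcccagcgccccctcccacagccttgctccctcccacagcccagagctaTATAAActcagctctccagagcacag
The table of promoters covered 7 of the 10 genes in 8 windows, and Comp, Lum and Dcn had no entry. TATAAA or its reverse complement was in 4 of the 8, against 12.4% of all 32851 windows. In the Chad promoter it lay 28 to 23 bases before the start and in the second Postn promoter 26 to 21 bases before, while the pair of matches in Aspn lay farther away, at 207 to 202 and 178 to 173 bases. CAGATG matched 1 of the 8 windows, that of Fmod, against 14.4% of all. CAGAC matched 3 of the 8 (42.2% of all), AACAAT 2 (9.42%) and TGANTCA 0 (6.75%). A match is a description of the letters and shows no bound factor. Several of these genes are neighbours in the genome. Dcn, Lum, Kera and Epyc follow one another on chromosome 10, Ecm2, Aspn, Omd and Ogn on chromosome 13, and Fmod lies beside Prelp and Optc on chromosome 1.

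The comparison of BF with BG asks what flight did beyond the habitat. In soleus, 7 of the 10 genes fell in BF vs. BG (Chad, Tnmd, Postn, Fmod, Aspn, Comp and Thbs4) and none rose. The falls ran from 1.96-fold for Thbs4 to 4.87-fold for Chad, and 6 of the 7 were over 2-fold, a size at which 1.54% of all genes fell. The leucine-rich proteoglycans Lum, Ogn and Dcn did not pass the test. Over all genes, 12.3% fell and 11.1% rose by the adjusted p alone. In the same 7 genes no BF array reached a BG array, as held for 19% of all genes. The median difference of the 10 genes was -1.71, beside 0.03 over all genes. Fewer cells of a type and less RNA per cell cannot be told apart in whole muscle.

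**Figure D1:**
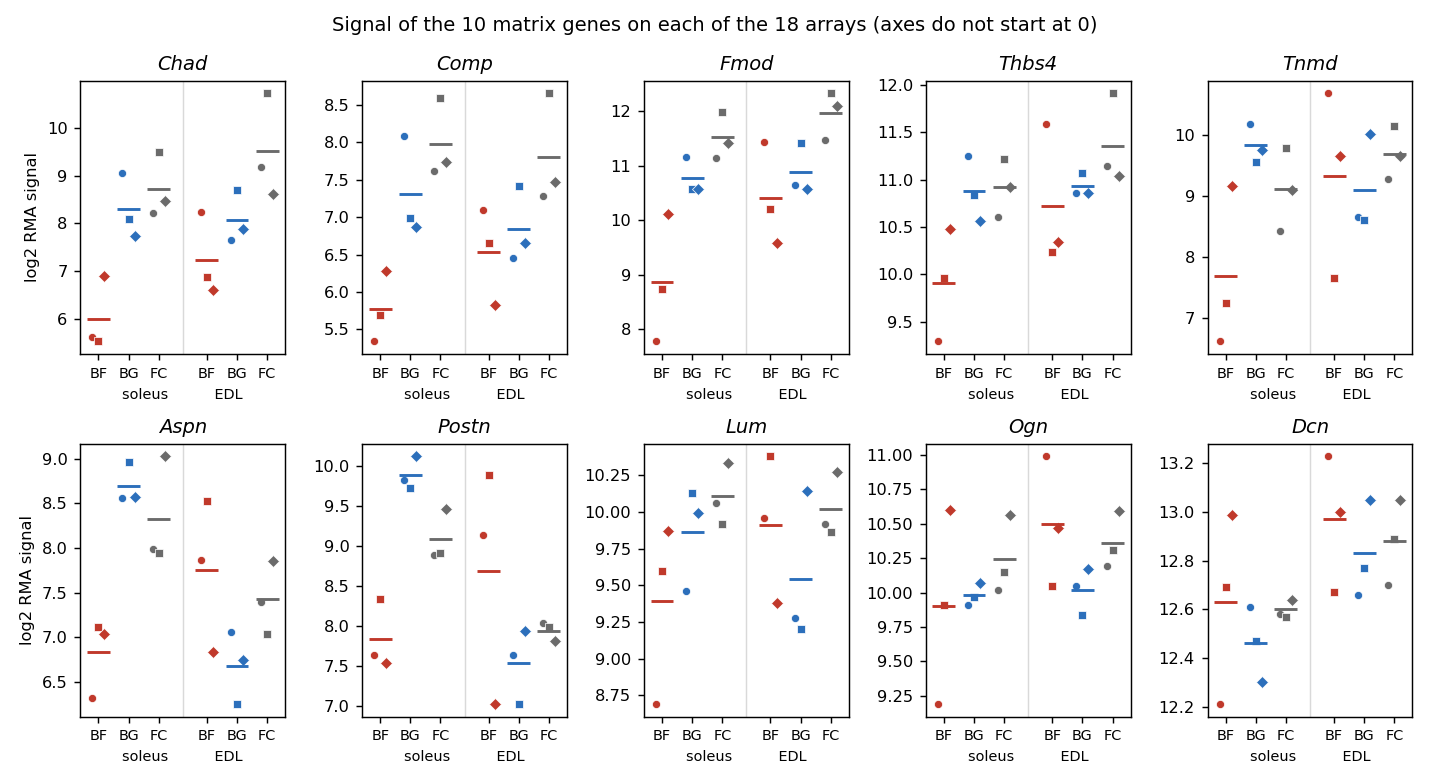
Log2 signal (vertical axis, a separate range for each gene) of the 10 genes on every array of BF (red), BG (blue) and FC (grey) in soleus and EDL. Circles, squares and diamonds are replicates 1, 2 and 3 and bars are group means of n = 3. In soleus all 3 BF arrays of Chad, Comp, Fmod, Thbs4, Aspn and Postn lie below all 6 control arrays, while Dcn overlaps. Of all genes, 19% had all BF arrays below all BG arrays and 22.6% had them below all FC arrays. The share below both controls at once is not given.

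Chad, which ties collagen to cell-surface integrins, had log2 signals of 5.63, 5.53 and 6.89 in BF soleus, 9.05, 8.10 and 7.74 in BG and 8.22, 9.50 and 8.46 in FC. All 3 BF arrays lay below all 6 control arrays. The difference was -2.28 ± 0.55 (SE, n = 3 arrays a group) vs. BG, with a limma adjusted p of 0.00738, and -2.71 ± 0.55 vs. FC, with 0.00191. Comp, a thrombospondin that bridges collagen fibrils in cartilage and tendon, read 5.34, 5.70 and 6.28 in BF, 8.08, 6.99 and 6.87 in BG and 7.61, 8.59 and 7.73 in FC. Its BF arrays were again the lowest of the 9. Comp differed by -1.54 ± 0.42 vs. BG (adjusted p 0.0147, limma) and by -2.20 ± 0.42 vs. FC (0.00119).

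Fmod, which regulates the thickness of collagen fibrils, read 7.77, 8.74 and 10.12 in BF soleus, 11.17, 10.58 and 10.58 in BG and 11.14, 11.98 and 11.42 in FC. The BF arrays spread over more than the gap that separated the highest of them from the controls. The difference was -1.90 ± 0.49 vs. BG (adjusted p 0.0111, limma) and -2.64 ± 0.49 vs. FC (0.00101), and all 6 probe sets of Fmod fell in both comparisons. Thbs4, which is made in tendon and muscle, read 9.29, 9.96 and 10.48 in BF, 11.25, 10.84 and 10.56 in BG and 10.61, 11.22 and 10.92 in FC. BF soleus 3 lay just under the lowest control array. The fall was the smallest of the 7, at -0.97 ± 0.34 vs. BG (adjusted p 0.0468, limma) and -1.01 ± 0.34 vs. FC (0.0376). The Thbs4 call was near the threshold, and the adjusted p rose to 0.0991 vs. BG without empirical Bayes moderation and to 0.206 without BF soleus 1, while leaving out any of 12 of the 18 arrays lost it. Against FC it was lost without BF soleus 1 (0.173) or 2 (0.0682) and without FC soleus 2 (0.135) or 3 (0.089). Tnmd, the tendon cell marker, read 6.61, 7.25 and 9.17 in BF, 10.19, 9.57 and 9.76 in BG and 8.43, 9.80 and 9.10 in FC. BF soleus 3 was below all BG arrays but above the lowest FC array. Tnmd fell by 2.17 ± 0.66 vs. BG (adjusted p 0.0275, limma), and its -1.44 ± 0.66 vs. FC did not pass (0.129). Without BF soleus 3 the value vs. FC was -2.18 and passed (0.0212), and the call vs. BG was lost without moderation (0.0723) and without BF soleus 1 or 2 or any BG soleus array (0.0527 to 0.127).

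Aspn, a small leucine-rich protein that can bind TGF-beta and inhibit it, read 6.32, 7.12 and 7.04 in BF soleus, 8.56, 8.96 and 8.57 in BG and 7.99, 7.94 and 9.03 in FC. The 3 BF arrays lay closer together than those of Chad or Fmod and below all 6 controls. Aspn differed by -1.87 ± 0.37 vs. BG (adjusted p 0.00217, limma) and by -1.49 ± 0.37 vs. FC (0.00745). The other Aspn probe set fell by 1.33 vs. BG (0.002), but read -0.41 vs. FC (0.275). The 2 probe sets thus disagree on the comparison with FC. Postn, which helps to cross-link collagen, read 7.63, 8.33 and 7.53 in BF, 9.82, 9.72 and 10.12 in BG and 8.88, 8.91 and 9.46 in FC. The 3 conditions did not overlap, with BF lowest, FC between and BG highest. Postn differed by -2.06 ± 0.47 vs. BG (adjusted p 0.00559, limma), while -1.25 ± 0.47 vs. FC did not pass (0.0632). The difference vs. FC passed with soleus fitted alone (adjusted p 0.00311) and when BF EDL 2 or 3 was left out of the shared model (0.0246 and 0.00235). It also passed with arrays weighted by their quality (0.0102) and with only probe sets above the median of all values (0.0485).

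Lum, Ogn and Dcn did not pass the test in either comparison. Lum, which keeps fibrils thin and evenly spaced, read 8.69, 9.60 and 9.87 in BF soleus, 9.46, 10.13 and 9.99 in BG and 10.06, 9.92 and 10.33 in FC. BF and BG overlapped, and all BF arrays were below all FC arrays. The differences of -0.48 ± 0.31 vs. BG (adjusted p 0.274, limma) and -0.72 ± 0.31 vs. FC (0.0982) did not pass, and the latter, at -0.96, passed without BF soleus 3 (0.0428). With arrays weighted by their quality Lum passed both, at -0.89 (0.0188) and -1.04 (0.00975), and Ogn passed vs. FC at -0.68 (0.0482). Ogn read 9.19, 9.91 and 10.60 in BF, 9.91, 9.97 and 10.07 in BG and 10.02, 10.15 and 10.56 in FC, so the BF arrays lay on both sides of the controls. Its difference vs. BG was -0.09, with a 95% confidence interval from -0.66 to 0.49. The other Ogn probe set gave 0.72 in BF vs. FC, where the first gave -0.35, and was lower on all FC arrays than on all BG arrays, by 0.84, without passing (adjusted p 0.159 and 0.145, limma). The 2 probe sets of Ogn thus disagree on FC. Dcn, the main dermatan sulphate proteoglycan of muscle connective tissue, read 12.21, 12.69 and 12.99 in BF and 12.61, 12.47 and 12.30 in BG. Its difference vs. BG was 0.17, with an interval from -0.20 to 0.55. For Ogn and Dcn the interval vs. BG leaves out a fall as large as 2-fold.

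**Figure D2:**
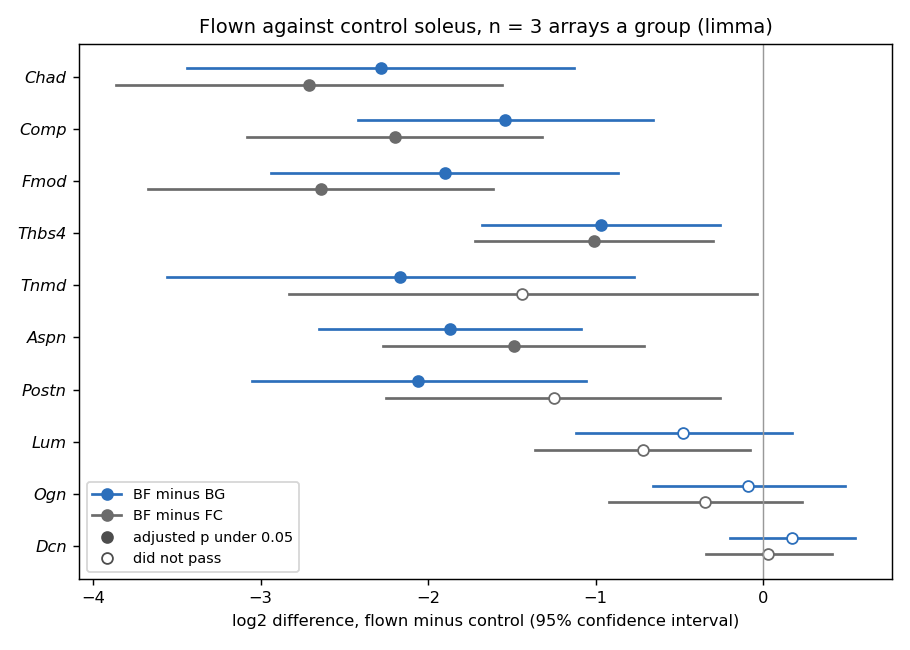
Log2 difference of flown soleus from BG (blue) and from FC (grey) for the 10 genes, with 95% confidence intervals from limma (n = 3 arrays a group); filled points passed an adjusted p of 0.05. The 7 filled blue points run from -2.28 for Chad to -0.97 for Thbs4, and both Dcn points lie near 0.

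In BF vs. FC of soleus, 5 of the 10 genes fell (Chad, Fmod, Comp, Aspn and Thbs4) and none rose. Over all genes, 16% fell and 9.02% rose. In 7 genes, with Lum and Postn but without Tnmd, all BF arrays lay below all FC arrays, as held for 22.6% of all genes. The median of the 10 was -1.34, beside 0 over all genes. Both comparisons share the BF arrays, so they are not separate evidence. BF soleus 1 carried a large part of the calls. Without it, 3 genes fell vs. BG (Chad, Aspn and Postn) and 4 vs. FC (Chad, Fmod, Aspn and Comp). The values vs. BG were then -2.09 for Chad, -1.96 for Postn, -1.62 for Aspn, -1.35 for Fmod (adjusted p 0.0655, limma), -1.33 for Comp (0.066) and -1.63 for Tnmd (0.127). Without BG soleus 1, which had the highest Chad and Comp of its group, 4 genes fell vs. BG (Chad, Fmod, Aspn and Postn), with Comp at -1.16 (0.0741). Chad, Aspn and Postn passed vs. BG under every alternative and every left-out array that was run.

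Some markers of other cell types moved in the same arrays. Of 6 adipocyte markers measured, 5 rose in BF vs. BG, among them Lep by 2.96 and Adipoq by 2.34, and their summed log2 signal was 12.85 to 13.95 in BF and 12.92 to 13.27 in BG. Of 10 fibroblast markers, Gsn rose, Col15a1 fell and 8 did not pass, with a median of -0.13. Against FC, Col15a1 and Pi16 fell and none rose, with a median of -0.5. The summed log2 signal of the 10, at 12.61 to 13.10 in BF, overlapped the 12.53 to 12.70 of BG, and BF soleus 2 alone reached the range of FC, 13.04 to 13.22. The brightest genes weigh most in such sums. Gsn averaged 12.20 in BF and 11.73 in BG, and Fabp4, the adipocyte marker that did not rise, 12.84 and 13.01. Of 8 epidermal markers, Krt1 rose by 0.55 vs. BG and 7 did not pass. The part of adipocyte and epidermal RNA in the falls was not tested.

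FC vs. BG asks what the habitat and food did without flight. In soleus 0 of the 10 genes were called, by limma's adjusted p and at an unadjusted p under 0.05 alike. Of all genes 9.8% were called either way by the adjusted p, and 9.86% were lower and 15.2% higher at the unadjusted one. The largest differences were -0.80 ± 0.47 for Postn (adjusted p 0.292), 0.74 ± 0.49 for Fmod (0.359) and -0.73 ± 0.66 for Tnmd (0.522). Postn was lower on all 3 FC arrays than on all BG arrays, as held for 13.7% of all genes. With soleus fitted alone it was called (adjusted p 0.0456). The second Aspn probe set was lower in FC by 0.92 ± 0.26 (0.0311), while the first read -0.38 ± 0.37 (0.561). In EDL 0 were called by limma's adjusted p as well, beside 0.0323% of all genes. All 10 nonetheless read higher in FC than in BG, by 0.05 for Dcn to 1.43 for Chad, while 52% of all genes read lower. The second probe sets of Aspn and Ogn did not, at -0.05 and -0.23. At an unadjusted p under 0.05 and over 2-fold, the threshold that the study's methods give for EDL, Chad and Fmod were higher in FC, beside 0.202% of all genes, and Comp, at 1.94-fold, was the third gene with an unadjusted limma p under 0.05 (0.0348), a level at which 5.74% of all genes were higher.

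In EDL few of the 10 genes were called. By limma's adjusted p, 0 of 10 were called in BF vs. BG, beside 0.379% of all genes, and 2 (Aspn and Postn) were higher at an unadjusted p under 0.05, as 5.39% of all genes were. Chad read 8.24, 6.88 and 6.61 in BF, 7.65, 8.71 and 7.88 in BG and 9.19, 10.72 and 8.62 in FC. The BF arrays overlapped BG and lay below all FC arrays. Chad was the gene that fell in BF vs. FC, by 2.27 ± 0.55 (adjusted p 0.0291, limma), beside 2.52% of all genes that fell. This call was lost without BF EDL 2 (0.0849), without BF EDL 3 (0.117), without FC EDL 2 (0.149) and with EDL fitted alone (0.054). Fmod differed from FC by -1.56 ± 0.49 (0.0891) and Comp by -1.27 ± 0.42 (0.104), and both passed at the unadjusted threshold with 2-fold, as 0.387% of all genes did in that direction. The 6 probe sets of Fmod read -1.62 to -1.17, and 2 of them passed the adjusted test. Without BF EDL 1, which had the highest Chad, Comp and Fmod of its group, Fmod passed the adjusted test together with Chad, at -2.07 (0.037), and it also passed when BF soleus 3 was left out of the shared model (0.0352).

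Aspn and Postn read higher in flown EDL. Aspn was 7.87, 8.53 and 6.84 in BF EDL, 7.06, 6.25 and 6.75 in BG and 7.40, 7.04 and 7.86 in FC. Postn was 9.13, 9.88 and 7.02 in BF EDL, 7.63, 7.02 and 7.94 in BG and 8.03, 7.98 and 7.81 in FC. For both genes BF EDL 1 and 2 were above every BG array and BF EDL 3 fell within or at the edge of the BG range. The differences from BG, 1.06 ± 0.37 for Aspn (adjusted p 0.257, limma) and 1.15 ± 0.47 for Postn (0.34), did not pass. They met the unadjusted threshold with 2-fold, as 0.25% of all genes did in that direction. The second Aspn probe set, at 7.55, 7.89 and 7.04 in BF EDL, was above all BG and FC arrays, by 1.13 ± 0.26 vs. BG (adjusted p 0.0732) and 1.18 ± 0.26 vs. FC (0.0195). Without BF EDL 3, Postn passed vs. BG at 1.98 (0.0152) and vs. FC at 1.56 (0.0146). Tnmd ranged most widely in this group, with 10.69, 7.66 and 9.66 in BF EDL.

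Whether the muscles responded differently was tested as the BF vs. BG difference of soleus minus that of EDL. Aspn differed between the muscles by -2.93 ± 0.52 (adjusted p 0.00475, limma) and Postn by -3.21 ± 0.67 (0.0105). By this rule 5.04% of all genes had a lower BF vs. BG difference in soleus than in EDL. The second Aspn probe set gave -2.46 ± 0.37 (0.00175). Neither gene lost this call under any alternative or left-out array. The other 8 genes did not pass, with Tnmd at -2.40 ± 0.94 (0.111), Chad at -1.45 ± 0.77 (0.235), Fmod at -1.43 ± 0.69 (0.192) and Comp at -1.23 ± 0.59 (0.189). The 95% intervals of Chad (-3.08 to 0.19), Comp (-2.47 to 0.02), Fmod (-2.89 to 0.03) and Thbs4 (-1.77 to 0.23) included 0, so for these genes a difference between the muscles was not shown, nor was a large one left out. Without BF soleus 3, Fmod (-2.05, adjusted p 0.0343) and Tnmd (-3.15, 0.0258) passed too. With FC as the control, 0 of the 10 passed limma's adjusted test, beside 1.19% of all genes with a lower difference in soleus than in EDL. Aspn and Postn were the 2 with an unadjusted p under 0.05, at which 9.34% of all genes had a lower difference in soleus. Aspn then read -1.81 ± 0.52 (0.0915) and Postn -1.99 ± 0.67 (0.144), while the second Aspn probe set passed at -1.59 ± 0.37 (0.0337). Without BF EDL 3, Aspn and Postn passed against FC as well, at -2.26 (0.0251) and -2.82 (0.00279).

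**Figure D3:**
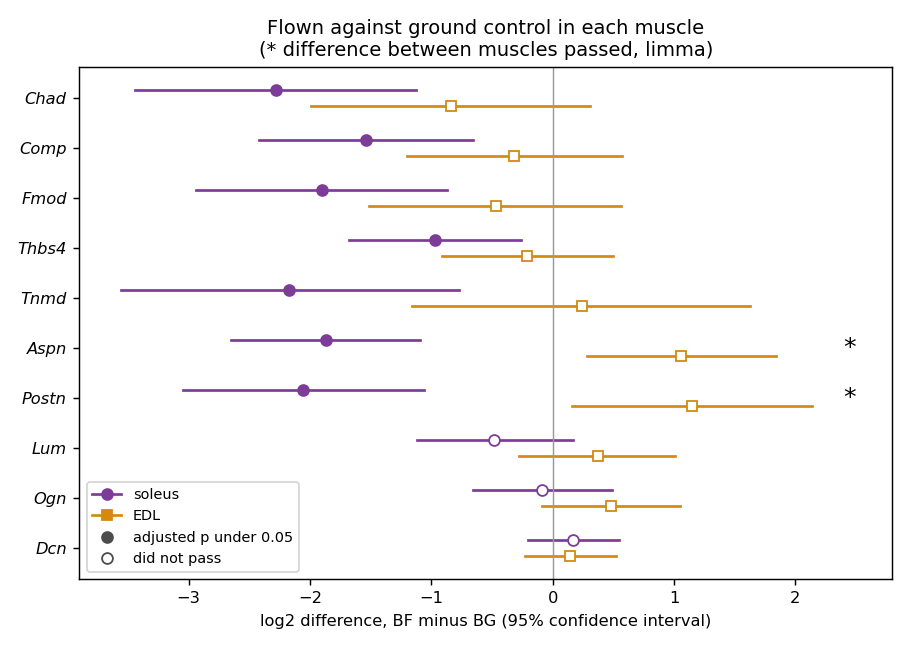
Log2 difference of BF from BG in soleus (purple circles) and EDL (orange squares) for the 10 genes, with 95% confidence intervals from limma (n = 3 arrays a group); filled points passed an adjusted p of 0.05 and an asterisk marks genes whose difference between the muscles passed. Aspn and Postn lie below 0 in soleus (-1.87 and -2.06) and above 0 in EDL (1.06 and 1.15).

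The same pair of genes set the muscles apart in the ground habitat. In BG mice Aspn was 2.01 ± 0.37 higher in soleus than in EDL (adjusted p 0.00122, limma) and Postn 2.36 ± 0.47 higher (0.00237), beside 8.3% of all genes that were higher in soleus. Neither gene's arrays overlapped, as held in that direction for 15.9% of all genes. None of the other 8 passed. Dcn was lower on all soleus than on all EDL arrays in BG, as 22.2% of all genes were, and in FC, as 17.8% were. In FC mice 0 of the 10 passed limma's adjusted test, beside 8% of all genes called higher. The 2 with an unadjusted p under 0.05 were Postn at 1.14 ± 0.47 (adjusted p 0.121) and Aspn at 0.89 ± 0.37 (0.125), both without overlap, beside 15.2% of all genes higher at that unadjusted p and 20.1% without overlap, and the second Aspn probe set passed at 1.02 ± 0.26 (0.0125). In BF mice all 10 genes read lower in soleus than in EDL, by 0.34 for Dcn to 1.66 for Tnmd, as 49.2% of all genes did. However, 0 passed limma's adjusted test, beside 6.63% of all genes called lower, and 6 had an unadjusted p under 0.05, beside 15.5% of all genes. Fmod was nearest to the threshold at -1.53 ± 0.49 (0.0512), and 3 of its 6 probe sets, all dimmer ones, passed. Single arrays decided how many of the 10 genes passed. Without BF soleus 3, 4 genes passed (Fmod at -2.16, Ogn, Thbs4 and Tnmd), with BF EDL 3 left out 3 did (Fmod, Aspn and Postn), and without BF EDL 2 or BG EDL 2 1 did (Tnmd at -2.50 and Fmod at -1.53). In FC mice Postn passed without BF EDL 3 (0.00616). These comparisons share arrays with those above.

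The order of the 6 group means followed the same pair of patterns. Aspn and Postn had one order, BG EDL lowest, then BF soleus, FC EDL, BF EDL, FC soleus and BG soleus highest, spanning 2.01 for Aspn and 2.36 for Postn. In this order every group of Aspn overlapped the next, and for Postn all did but FC and BG soleus. The second Aspn probe set was ordered otherwise, with FC EDL lowest at 6.31 and BF EDL, at 7.49, above FC soleus, at 7.34. Chad, Comp, Fmod and Thbs4 were lowest in BF soleus and next lowest in BF EDL, with spans of 1.45 for Thbs4 to 3.49 for Chad. FC EDL or FC soleus was the highest, and in each of these orders every group overlapped the next. Dcn spanned only 0.51 and Ogn 0.60.

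Arrays within a group varied more for these genes than for most. The residual standard deviation of the model was 0.96 for Tnmd, 0.79 for Chad, 0.71 for Fmod and 0.68 for Postn, at percentiles 99.2 to 99.7 of all genes, and the lowest, 0.23 for Dcn, was at percentile 78.2. The variation was shared. Chad, Comp, Fmod and Thbs4 had the same array as their highest in all 6 groups: BF soleus 3, BG soleus 1, FC soleus 2, BF EDL 1, BG EDL 2 and FC EDL 2. Tnmd matched Chad in 5 of 6 groups, and of 12383 other genes 15, or 0.121%, matched in all 6. Aspn and Postn matched Chad in 0 of 6 groups and each other in 3, with the same highest array in BF soleus, FC soleus and BF EDL. BG EDL 2 and FC EDL 2, among the highest arrays of the Chad group, were also 2 of the 4 arrays with raised epidermal markers, while the other 2, BF soleus 1 and 2, lay below BF soleus 3. The part of dissection in this was not tested.

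**Figure D4:**
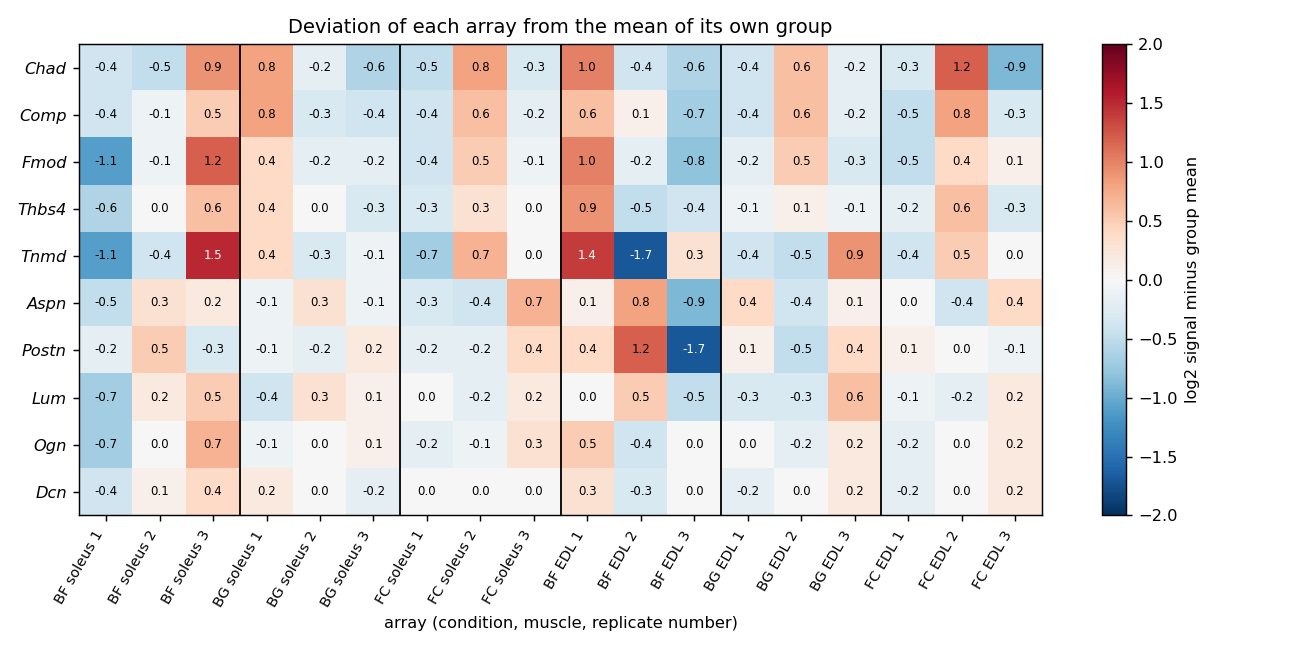
Log2 signal of each of the 18 arrays minus the mean of its own group (colour and printed value) for the 10 genes, with lines between groups. Chad, Comp, Fmod and Thbs4 peak on the same array in every group, while Aspn and Postn peak on others and are lowest on BF EDL 3.

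Over the 18 arrays, which include the differences between groups, Chad correlated with Comp at 0.94, Fmod at 0.93, Thbs4 at 0.91 and Tnmd at 0.68 (Pearson r, a description of arrays that share their groups). Its r with Aspn was 0.25 and with Postn 0.15. Outside the 10 genes, only genes with a mean signal above the median of all probe sets were ranked. Among these, the highest r with Chad was for Serpinf1, which encodes the secreted factor PEDF, at 0.93. Cpxm2 at 0.91, Mta1 at 0.88, Mcm3ap at 0.87 and Vps9d1 at 0.86 came next. Aspn correlated with Postn at 0.90 and with Lum at 0.67. Among the same ranked genes, those most like Aspn were Set at 0.90, Elmo1 at 0.89, Rab23 at 0.86 and Gsto1 and Dhx9 at 0.84.

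Other genes of the same families moved in both directions in soleus. Of 6 further small leucine-rich genes measured, Bgn, which encodes biglycan, the closest relative of decorin, fell by 1.01 ± 0.23 vs. BG (adjusted p 0.00607, limma) and by 1.63 ± 0.23 vs. FC (1.39e-04). No other of these 6 changed vs. BG, and Omd, the neighbour of Aspn and Ogn, rose by 0.86 vs. FC (0.0282). The median of the 6 was 0.07 vs. BG. Of 12 thrombospondins and matricellular genes, Sparcl1, which encodes hevin, fell by 1.28 vs. BG (1.59e-05), the early response gene Ccn1 rose by 1.56 (0.0203) and 10 did not pass. Against FC, Thbs1 rose by 2.19 and Ccn1 by 1.89, while 4 fell, Thbs3 by 1.33 and Sparcl1 by 1.09 among them. So within the thrombospondins, Thbs1 and Thbs3 went opposite ways against FC, while Comp and Thbs4 fell against both controls. Neither Thbs1 nor Thbs3 passed vs. BG, and in FC vs. BG Thbs1 was lower and Thbs3 higher. Of 17 genes of cartilage matrix, 15 did not pass vs. BG. However, 14 of the 17 averaged below the median of all values. Col11a1 fell by 1.55 (0.00695) and Col9a1 rose by 1.46 (0.0169), and the cartilage genes Acan and Col2a1, singled out after their values were seen, averaged 4.31 and 4.90 in BF soleus, below the array medians.

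Fibril collagens, the partners of these proteins, fell in part. Of 21 collagens and collagen enzymes, 7 fell vs. BG, 1 rose and 13 did not pass, with a median of -0.28. Against FC 13 fell and none rose. Col1a1 differed by -1.88 ± 0.50 vs. BG (adjusted p 0.0127, limma) and by -2.68 ± 0.50 vs. FC (9.68e-04), and Col3a1 by -1.20 and -1.61. Transcription factors of tendon and cartilage did not fall. Of 7 measured, 4 rose vs. BG, Egr1 by 2.48 ± 0.61 (0.00877), Egr2 by 0.83, Runx1 by 0.66 and Sox5 by 0.54, and none fell. Egr1 and Egr2 are also early response genes of many stimuli, and Scx, which encodes scleraxis and was singled out after its values were seen, read 0.30 ± 0.23 (0.362). Of 19 genes of TGF-beta signalling, 3 fell vs. BG (Tgfb3 by 0.77, Ltbp4 by 0.79 and Fstl1 by 0.88), Tgif1 rose by 0.67 and 15 did not pass. Against FC 8 fell and 2 rose. Of 14 matrix proteases and inhibitors, Adamts5 and Htra1 rose vs. BG, by 0.58 and 0.78, and none fell. Against FC 3 fell (Mmp2, Timp2 and Timp3) and 1 rose, and the same 3 were higher in FC than in BG. In EDL no gene of these 7 lists was called in BF vs. BG.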

How the data were processed

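RNA of 9 soleus and 9 EDL muscles was hybridised to Affymetrix mouse expression arrays. The deposited values are log2 signals that the authors made from all 18 arrays with RMA in Partek Genomics Suite: it corrects the background, makes probe signals quantile-equal over arrays, takes log2 and sums up each probe set by median polish. Of 22690 probe sets, 64 controls were left out and 22626 were tested with no filter on signal. Quantile normalization gives all arrays nearly one distribution, so a change shared by most genes cannot be seen. The number of arrays limits precision. The means of the 6 groups were fitted as a linear model in limma 3.58.1 (R 4.3.3, statmod 1.5.0) with empirical Bayes moderation, with 12 residual degrees of freedom and 5.1 from the prior, and was tested on simulated data with known changes. An exact permutation test of 3 against 3 arrays cannot go below p = 0.1 and was not used. The labels do not say whether the muscles came from separate mice within a group, and p values measure the spread between arrays. Equal numbers were not taken as pairs in the main model. For soleus vs. EDL in FC the deviations of all 3 pairs of equal numbers correlated at 0.16 to 0.37, and a replicate block changed no call of the 10 genes there. The labels of BF EDL 2 and 3 name Bion M2 and M3, taken as slips for M1.

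A probe set names a gene only where the platform annotation gives 1 gene (20380 probe sets, 12393 genes). The members and lists were chosen with earlier results of these data known. The text names all 10 members, up to 4 genes of each list with the largest change past the threshold in soleus, and the 5 other genes most correlated with Chad and with Aspn. These 5 were taken from genes with a mean signal above the median of all probe sets. A few other genes of the lists, such as Adamts5, Fabp4, Krt13 and Myh7, are named besides these. The marker lists not described are macrophage, endothelial, Schwann, bone and fast and slow muscle genes. In BF vs. BG of soleus, 1 of 10 macrophage markers rose, 1 of 8 endothelial markers rose and 3 fell, 3 of 5 Schwann markers rose, 1 of 6 bone markers rose and 1 fell, 4 of 9 fast muscle markers rose and 1 of 8 slow muscle markers fell. Alternatives tried were a filter on dim probe sets, each muscle alone, no moderation, array weights, median centring, quantile normalization within a muscle, trended robust moderation, the mean of a gene's probe sets, other thresholds, replicate blocks and leaving out each array. Figures were drawn with matplotlib 3.10.9 in Python 3.11.15.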

Additional observations from a re-analysis of the deposited data

Results flagged for a closer look

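Aspn and Postn were picked out because the BF vs. BG difference of soleus differed from that of EDL by limma. The falls in soleus passed by themselves, while the EDL differences, 1.06 for Aspn (adjusted p 0.257) and 1.15 for Postn (0.34), did not. With BG as the control, the difference between soleus and EDL was -2.93 for Aspn on its brighter probe set, -2.46 on the other, and -3.21 for Postn. With FC as the control it was -1.59 on the dimmer Aspn probe set, while the brighter one, at -1.81 with an adjusted p of 0.0915, did not pass. On all 3 BF soleus arrays both genes lay below every BG soleus array. In EDL, BF arrays 1 and 2 lay above every BG array and BF array 3 did not.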

How the results depend on the processing

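The 7 calls of BF vs. BG in soleus numbered 3 to 7 when an array was left out, those of BF vs. FC 4 to 7, and those of FC vs. BG 0. In EDL the counts ran from 0 to 1 for BF vs. BG, 0 to 2 for BF vs. FC and 0 for FC vs. BG. The differences between muscles numbered 2 to 4 with BG as control and 0 to 2 with FC, and soleus vs. EDL gave 2 in BG, 0 to 1 in FC and 0 to 4 in BF. Array quality weights moved the counts most, to 8 for BF vs. BG and 9 for BF vs. FC in soleus, 2 in EDL, 9 and 4 for the differences between muscles with BG and FC, 2 for soleus vs. EDL in FC and 10 in BF. The share of all genes called under the weights is not given. A general rise in calls therefore cannot be told apart from a rise in these 10 genes. Each muscle fitted alone gave 1 for FC vs. BG in soleus (Postn) and 0 for BF vs. FC in EDL, as did no moderation and trended moderation for the latter. Both of these also left 5 calls for BF vs. BG in soleus, without Thbs4 and Tnmd. Soleus vs. EDL in BF gave 1 (Fmod) under the dim filter, subtracted medians, the mean of a gene's probe sets and the random replicate block, and soleus vs. EDL in FC gave 1 (Aspn) with the mean of probe sets. In BF vs. FC of soleus, Postn was gained under the dim filter and with soleus fitted alone. At an unadjusted p under 0.05 and over 2-fold, EDL gave 2, 3 and 2 genes for BF vs. BG, BF vs. FC and FC vs. BG. The cause was not tested.

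Arrays of one muscle that share a number across conditions had deviations that correlated at -0.13 to 0.30. Soleus and EDL arrays of the same number correlated at -0.02 to 0.14 in BF, -0.05 to 0.20 in BG and 0.16 to 0.37 in FC. The numbers were not taken as pairs in the main model. With the number as a replicate block within each muscle, BF vs. BG in soleus kept 6 of 7 calls and BF vs. FC 4 of 5. Thbs4 was the one lost, at an adjusted p of 0.0612 and 0.0516, and no other call among the 10 genes changed. With condition and number taken as the mouse across muscles, as a random replicate block (correlation 0.10), Thbs4 was lost in BF vs. BG (0.0512) and Fmod was gained in soleus vs. EDL of BF. No change of a called value turned its sign under any alternative.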
